A study of Mus musculus with 2 samples.

Results

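Beta-catenin, the TCF/LEF factors it acts through, and a set of destruction-complex scaffolds and feedback genes were followed in the embryonic facial prominence, the tissue from which the face forms. The 10 genes were Ctnnb1, Lef1, Tcf7, Tcf7l1, Tcf7l2, Axin1, Axin2, Nkd1, Nkd2 and Apc, taken by symbol from the deposited gene tables, which hold 55536 genes. All 10 symbols matched 1 gene each. The material was polyA plus RNA-seq of B6NCrl embryos at 12.5 days, healthy, with both sexes pooled and with no treatment or engineered allele named in the labels. Replicate 2 came from 88 embryos and replicate 1 from 120 embryos, with 10 ng of RNA per library. With 1 tissue at 1 age, the data hold no comparison between conditions. The report therefore covers how much of each gene was present, which transcripts carried it, and how far both libraries and both annotation releases differed.

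In canonical Wnt signalling, a complex built on Axin and Apc marks beta-catenin for degradation when no Wnt ligand is bound. When a ligand engages its receptors, that complex is held inactive, and beta-catenin accumulates and enters the nucleus. There it binds the N-terminus of TCF/LEF proteins, which sit on DNA through an HMG box and otherwise recruit repressors. Axin2, Nkd1 and Nkd2 are widely used as transcriptional read-outs and act back on the pathway as inhibitors. In the face, this pathway is known for its part in outgrowth of the prominences, in tooth formation and in the closure of lip and palate.

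Levels are deposited TPM values (a share of all transcripts, corrected for length) from GENCODE release M21, as mean ± SD over n = 2 pools, and positions are on mm10. Shares of single transcripts are the deposited IsoPct, the percent of a gene's transcripts that are of that form. Depth was 41092194 summed expected counts in replicate 2 and 28705073 in replicate 1, of which ERCC spike-ins took 3.10% and 2.85%. Of 22028 protein-coding genes, 13382 had at least 1 TPM in both libraries and are called detected, with a median of 21.5 TPM. All 8 facial mesenchyme markers were detected, with summed levels of 895.0 TPM in replicate 2 and 892.6 TPM in replicate 1, and none of 6 Hox genes of the body behind the first arch was. Lens and eye markers, 5 of 5 detected, summed to 437.6 TPM in replicate 2 and 190.8 TPM in replicate 1. On the log2 scale, 3 of the 5 were more than 0.5 higher in replicate 2. Past 0.5 either way were 2.09% of the detected protein-coding genes.

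All 10 genes were detected, with a median of 30.6 TPM. Ctnnb1, which encodes beta-catenin itself, stood far above the others. It had 626.5 TPM in replicate 2 and 610.1 TPM in replicate 1, a mean of 618 ± 11.6, and ranked at position 162 among the detected protein-coding genes. Next came 2 of the DNA-binding factors and a feedback gene. Tcf7l2 averaged 112 ± 5.97 TPM, Lef1 83.8 ± 0.134 TPM and Nkd1 67.2 ± 3.37 TPM. Tcf7l1 followed at 40.5 ± 1.44 TPM. These 5 genes kept the same order in both libraries, with no overlap between neighbours.

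The scaffolds and the remaining inhibitors formed a lower tier. Nkd2 had 21.67 TPM in replicate 2 and 19.77 TPM in replicate 1. Apc had 17.21 TPM in replicate 2 and 19.15 TPM in replicate 1. Axin1 had 11.99 TPM in replicate 2 and 21.8 TPM in replicate 1. This range of Axin1 covered both values of Apc and both of Nkd2, and overlapped those of Axin2. The place of Axin1 among these genes is therefore not fixed by the data. Axin2 had 13.71 TPM in replicate 2 and 11.87 TPM in replicate 1. Tcf7 was lowest, with 6.89 TPM in replicate 2 and 5.38 TPM in replicate 1, and 78.3% of the detected protein-coding genes were higher.

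**Figure D1:**
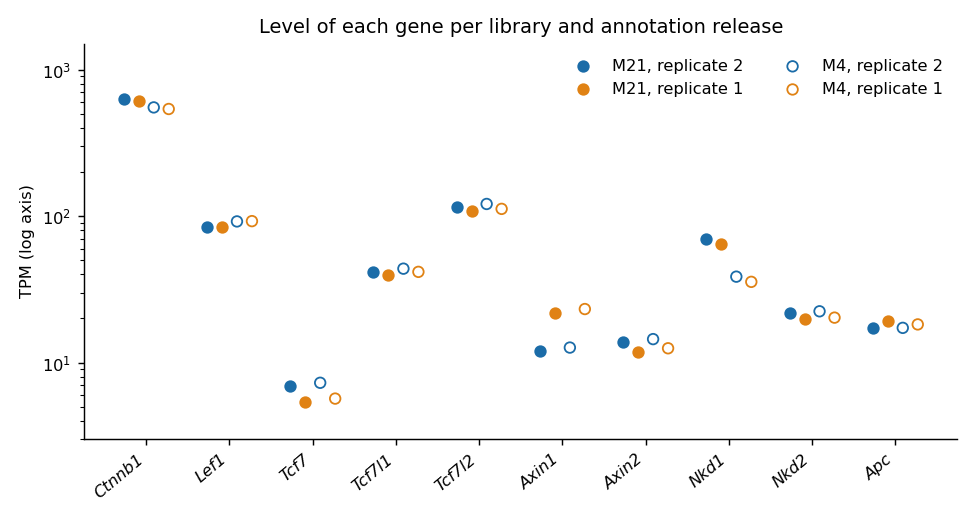
TPM of each of the 10 genes (log axis), with filled points for GENCODE release M21, open points for release M4, blue for replicate 2 and orange for replicate 1. Ctnnb1 lies between 539.5 and 626.5 TPM, the points of Nkd1 differ by release and those of Axin1 differ by library.

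The TCF/LEF genes encode closely related DNA-binding proteins. The stretch below shows this relation in 60 coding bases from the part that encodes the HMG box, read from the GENCODE M21 transcripts. Capitals mark the 44 bases that are the same in all 4 genes. On mm10 the windows lie at chr3:131200313-131200372 (Lef1, plus strand), chr11:52256770-52256829 (Tcf7, minus strand), chr6:72631042-72631101 (Tcf7l1, minus strand) and chr19:55919529-55919588 (Tcf7l2, plus strand).
Lef1: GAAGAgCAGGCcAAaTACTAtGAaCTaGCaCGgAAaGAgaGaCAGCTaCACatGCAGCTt
Tcf7: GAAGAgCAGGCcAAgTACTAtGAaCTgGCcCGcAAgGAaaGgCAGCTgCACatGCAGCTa
Tcf7l1: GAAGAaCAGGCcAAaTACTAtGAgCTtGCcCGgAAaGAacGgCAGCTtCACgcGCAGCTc
Tcf7l2: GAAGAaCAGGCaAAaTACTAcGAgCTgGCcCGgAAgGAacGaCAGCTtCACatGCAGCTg
Against Lef1, the Tcf7 window was the same at 85.0% of bases, and those of Tcf7l1 and Tcf7l2 at 81.7% each.

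Their transcripts were far from equal in amount. The summed level of the 4 genes was 248.4 TPM in replicate 2 and 236.2 TPM in replicate 1, and the level of Ctnnb1 was 2.55 ± 0.0428 times that sum. Tcf7l2 (chr19:55741820-55933654), known for its role in the gut epithelium and in metabolism, supplied 46.7% of the sum in replicate 2 and 45.6% in replicate 1. Lef1 (chr3:131110471-131224356), known as a factor needed for teeth, hair follicles and whiskers, supplied 33.8% in replicate 2 and 35.4% in replicate 1. Tcf7l1 (chr6:72626378-72789254), known mainly as a repressor, supplied 16.7% in each library. Tcf7 (chr11:52252371-52283014), best known for its role in T cell development, supplied 2.77% in replicate 2 and 2.28% in replicate 1. Of 7 T cell markers only Ptprc, a gene of all white blood cells, was detected, and the 7 summed to 2.09 TPM in replicate 2 and 2.14 TPM in replicate 1. Cd3d and Cd8a were at 0 in both libraries.

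The order of Tcf7l2 and Lef1 turned when only transcripts annotated as protein-coding were counted, a setting chosen after the data were seen. Coding transcripts of Lef1 had 77.11 TPM in replicate 2 and 75.68 TPM in replicate 1. Those of Tcf7l2 had 65.33 TPM in replicate 2 and 64.85 TPM in replicate 1. Both libraries thus placed Lef1 above Tcf7l2, without overlap. Lef1 then supplied 40.5% of the coding TCF/LEF sum in replicate 2 and 40.9% in replicate 1, while Tcf7l2 supplied 34.3% and 35.0%. With transcript classes carried over from M21 by ID, the quantification on release M4 also placed Lef1 above Tcf7l2, with 42.6% in replicate 2 and 43.1% in replicate 1 for Lef1, against 32.1% and 32.7% for Tcf7l2. Tcf7l1 and Tcf7 moved little, at 40.2 ± 1.27 and 6.14 ± 1.07 coding TPM.

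**Figure D2:**
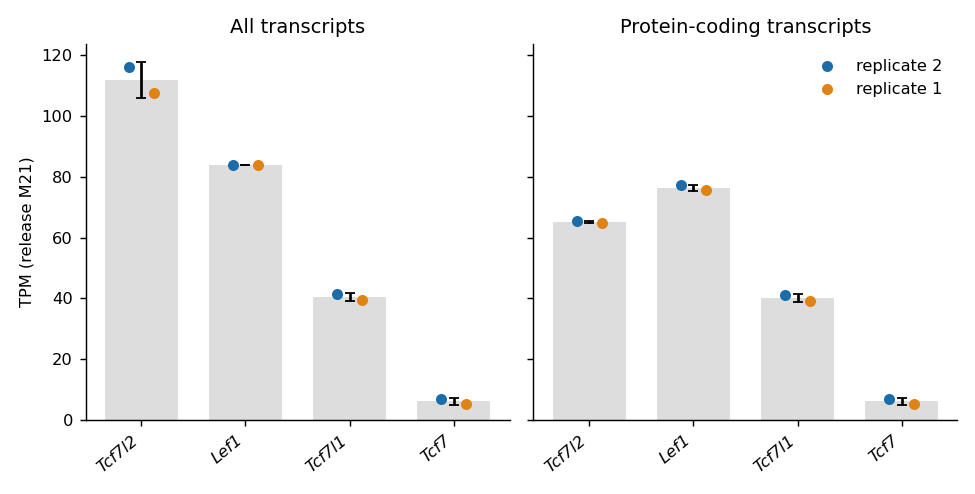
TPM of the 4 TCF/LEF genes from all transcripts (left) and from transcripts annotated as protein-coding (right) in release M21. Grey bars are means, error bars are SD over n = 2, and points are replicate 2 in blue and replicate 1 in orange. Tcf7l2 is highest on the left at 112 ± 5.97 TPM and Lef1 on the right at 76.4 ± 1.01 TPM.

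Tcf7l2 and Lef1 differed in the makeup of their transcripts. Of the TPM of Tcf7l2, protein-coding transcripts held 58.3 ± 2.81% and transcripts annotated as retaining an intron 41.1 ± 2.77%. Among the detected protein-coding genes the median coding share was 90.9% (quartiles 71.2% and 99.8%), and 15.7% of them had a lower share than Tcf7l2. The level of Lef1 was 91.1 ± 1.06% coding. Ctnnb1 had a coding share of 64.1 ± 0.827% and Apc of 55.2 ± 8.17%. The share of Apc was 61.0% in replicate 2 and 49.5% in replicate 1. Under M4, with the M21 classes, it was 73.4% in replicate 2 and 65.3% in replicate 1. Axin2 had a coding share of 80.6 ± 1.59%. Tcf7, Tcf7l1, Nkd1, Nkd2 and Axin1 were above 90% in both libraries.

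**Figure D3:**
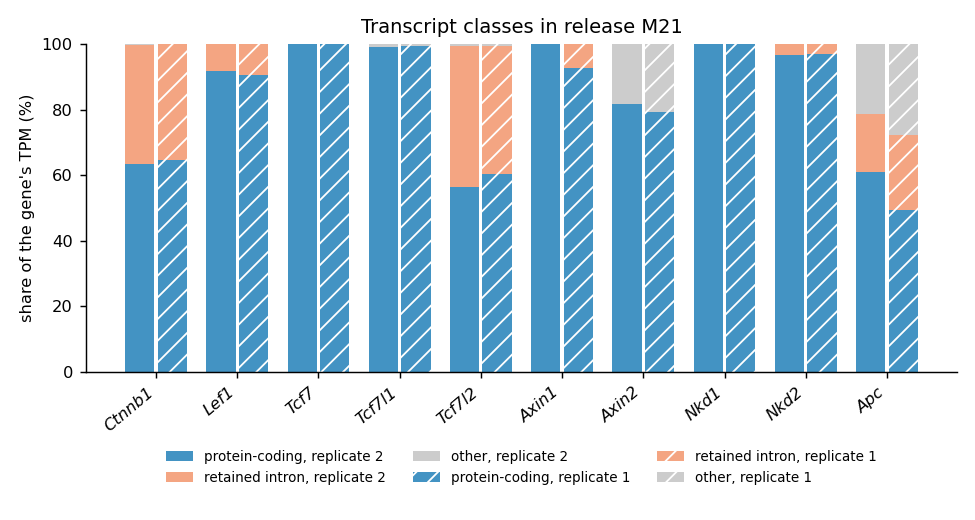
Share of each gene's TPM (%) carried by transcripts annotated as protein-coding (blue), retained intron (orange) and any other class (grey) in release M21, with plain bars for replicate 2 and hatched bars for replicate 1. Tcf7l2, Ctnnb1 and Apc have the lowest coding shares, and Tcf7 and Nkd1 are wholly coding after rounding.

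Lef1 can be made from an upstream promoter, giving the full protein, or from starts further into the gene, where a coding transcript without the first start codon lacks the beta-catenin binding part. Transcripts from the first annotated start held 91.9% of Lef1 in replicate 2 and 90.4% in replicate 1. Transcripts from downstream starts held 8.09% in replicate 2 and 9.60% in replicate 1. Most of the downstream share was Lef1-206, a retained-intron transcript with no annotated coding sequence, at 7.06% in replicate 2 and 8.82% in replicate 1. Lef1-203, the annotated coding transcript that begins downstream, was assigned 0 counts in both libraries. This limits it only as far as the estimator could tell it apart from transcripts that share its exons, and its posterior mean share was 0.295%. Promoter windows near these starts are given because the estimator divided Lef1 between transcripts annotated from them. Whether RNA begins at the downstream start was not tested. They are the 250 bases before the RefSeq starts on GRCm38.p6, plus strand, at chr3:131110047-131110296 and chr3:131112541-131112790, with capitals for CTTTG, the core of the TCF/LEF motif, or its reverse complement CAAAG.
Lef1 upstream window: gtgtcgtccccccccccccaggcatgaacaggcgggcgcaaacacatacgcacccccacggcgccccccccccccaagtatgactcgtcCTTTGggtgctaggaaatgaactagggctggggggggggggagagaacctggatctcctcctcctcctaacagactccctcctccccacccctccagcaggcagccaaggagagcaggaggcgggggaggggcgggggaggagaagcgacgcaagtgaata
Lef1 downstream window: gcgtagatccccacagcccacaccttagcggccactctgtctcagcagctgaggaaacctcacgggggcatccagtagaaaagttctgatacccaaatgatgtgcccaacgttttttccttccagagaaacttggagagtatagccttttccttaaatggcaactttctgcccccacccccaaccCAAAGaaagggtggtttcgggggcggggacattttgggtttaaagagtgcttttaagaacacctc
Each of these windows holds the core once. The RefSeq table has 2 further windows for Lef1, chr3:131110073-131110322, which overlaps the upstream one and holds the core 2 times, and chr3:131156044-131156293, which holds it 3 times. The upstream window is 66.4% G or C and the downstream window 50.8%. The upstream window ends short of chr3:131110471, where Lef1-201, Lef1-202 and Lef1-204 start in GENCODE M21.

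Across the set, promoter windows of 300 bases (250 before and 50 after the RefSeq start) existed for 8 of the genes, 14 windows in all. Axin1 and Apc were not searched. The longer motif letters CTTTGAA or CTTTGAT, on either strand, occurred in 0 of these 14 windows, against 8.65% of all 32851 windows. The core CTTTG, which both longer motifs contain, occurred in 7 of the 14 windows, against 53.9% of all windows. The 7 belonged to Lef1, Tcf7l1 and Tcf7l2. A match of letters is not a binding site, and its absence from these windows says nothing of sites elsewhere.

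Most Lef1 transcripts skipped an exon of 84 bases. Lef1-202, which lacks that exon and has a coding length of 1107 bases, held 54.98% of Lef1 in replicate 2 and 54.74% in replicate 1. Lef1-204, with a coding length of 1152 bases, also lacks the 84-base exon and further skips a 41-base exon near the end of the reading frame. It held 28.73% in replicate 2 and 28.07% in replicate 1. Lef1-201, which contains both exons and codes over 1191 bases, held 8.19% in replicate 2 and 7.59% in replicate 1. Over transcripts that span the 84-base exon, its inclusion was thus 8.91% in replicate 2 and 8.39% in replicate 1. Its length is a multiple of 3, so including it does not shift the frame. It lies at chr3:131191023-131191106 on the plus strand. It is printed in capitals, with 15 coding bases of Lef1-201 on either side.
Lef1 84-base exon: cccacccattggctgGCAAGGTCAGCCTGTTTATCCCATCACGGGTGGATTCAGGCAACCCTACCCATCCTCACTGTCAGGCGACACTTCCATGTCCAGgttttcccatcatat
Inclusion of the 41-base exon was 68.7% in replicate 2 and 68.9% in replicate 1.

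Tcf7l2 was more divided. Its leading transcript, Tcf7l2-209, with a coding length of 1377 bases, held 38.09% in replicate 2 and 39.03% in replicate 1. The next, Tcf7l2-206, is a retained-intron transcript and held 21.35% in replicate 2 and 23.07% in replicate 1. Of the other coding transcripts, Tcf7l2-201 averaged 5.53 ± 0.23%, Tcf7l2-210 4.91 ± 0.62%, Tcf7l2-222 4.00 ± 0.46% and Tcf7l2-202 3.62 ± 0.94%. Tcf7l2-213 averaged 0.67 ± 0.95%, Tcf7l2-218 0.43 ± 0.20%, Tcf7l2-211 0.325 ± 0.25% and Tcf7l2-203 0.235 ± 0.19%, while Tcf7l2-212, Tcf7l2-215 and Tcf7l2-221 were assigned 0 counts in both libraries under M21. The minor coding forms depended on the release. Under M4, Tcf7l2-201 held 0.96% in replicate 2 and 0% in replicate 1, Tcf7l2-210 held 8.96% and 10.08%, and Tcf7l2-212 had 77 and 112 counts. Tcf7l2-210, under M21 the longest coding form with counts in both libraries, spans 1794 coding bases. Coding transcripts that begin downstream of the first start codon together held 0.940% in replicate 2 and 0.390% in replicate 1.

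The transcripts of Tcf7l2 differed in which 3′ coding exons they carried. The 51-base exon at chr19:55924530-55924580 was included at 82.3% in replicate 2 and 81.3% in replicate 1. The 73-base exon at chr19:55925977-55926049 was included at 84.8% in replicate 2 and 82.5% in replicate 1. A 25-base exon at chr19:55927730-55927754, in which the reading frame of Tcf7l2-209 ends, was included at 69.0% in replicate 2 and 65.2% in replicate 1. Near the 5′ end, the 69-base exon at chr19:55755014-55755082 was included at only 28.4% in replicate 2 and 27.5% in replicate 1, and most of that came from the retained-intron transcript Tcf7l2-206. The 3 wholly coding exons of this group are shown in capitals on the plus strand, between adjoining coding bases of Tcf7l2-222 (69-base exon) or Tcf7l2-209 (the others).
Tcf7l2 69-base exon: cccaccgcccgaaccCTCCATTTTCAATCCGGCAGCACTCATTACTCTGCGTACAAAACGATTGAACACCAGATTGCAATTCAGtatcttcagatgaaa
Tcf7l2 51-base exon: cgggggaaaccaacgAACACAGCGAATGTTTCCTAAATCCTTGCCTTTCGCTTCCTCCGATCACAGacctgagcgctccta
Tcf7l2 73-base exon: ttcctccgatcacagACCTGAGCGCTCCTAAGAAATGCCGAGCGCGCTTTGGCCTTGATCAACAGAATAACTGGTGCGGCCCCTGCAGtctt
The 69- and 51-base exons are multiples of 3 in length and the 73- and 25-base exons are not. Each of these 4 inclusion values differed by less than 4 percentage points between the libraries.

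**Figure D4:**
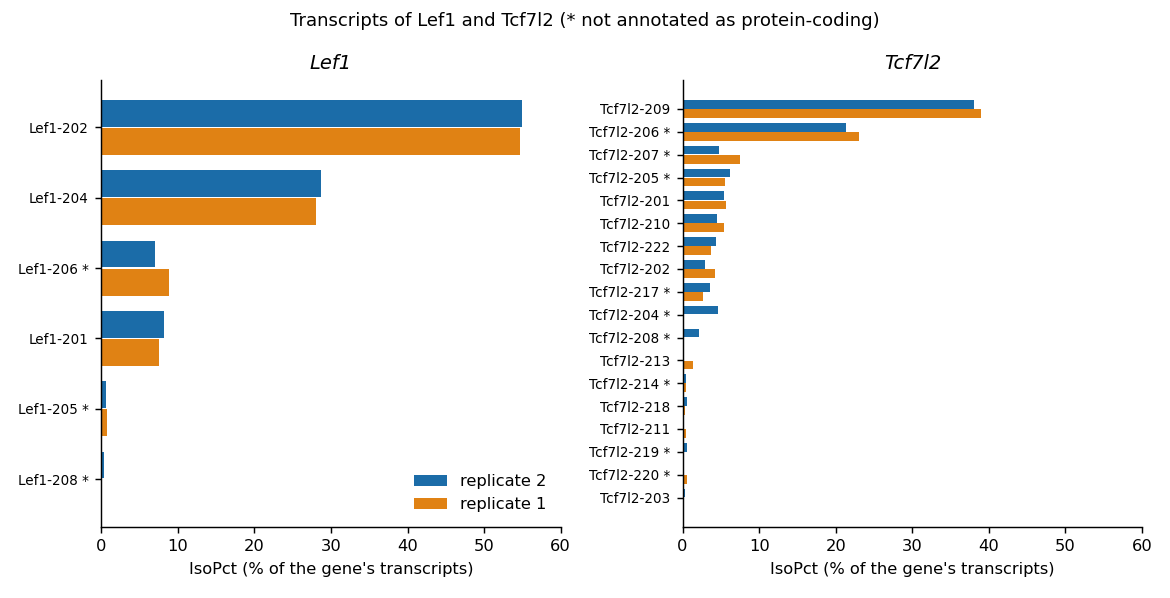
Percent of each gene's transcripts (IsoPct) for every transcript of Lef1 (left) and Tcf7l2 (right) with a value above 0, as bars for replicate 2 (blue) and replicate 1 (orange). An asterisk marks transcripts not annotated as protein-coding. Lef1-202 leads at 54.9 ± 0.17% and Tcf7l2-209 at 38.6 ± 0.66%.

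The other TCF/LEF genes were simpler. Tcf7l1-201 held 92.33% of Tcf7l1 in replicate 2 and 89.89% in replicate 1. Tcf7 had 2 annotated coding transcripts with the same start codon. Tcf7-201 held 75.96% in replicate 2 and 89.96% in replicate 1, and Tcf7-202 the rest, from 71 counts in replicate 2 and 16 counts in replicate 1.

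Ctnnb1 (chr9:120929216-120960507, plus strand) was split between a full-length transcript and a short 3′ one. Ctnnb1-201, which codes over 2343 bases, held 60.46% in replicate 2 and 60.31% in replicate 1. Ctnnb1-215, annotated as a retained intron, is a single exon of 1292 bases that ends at the same base as Ctnnb1-201, and held 33.23% in replicate 2 and 32.43% in replicate 1. In release M4, whose tables do not list Ctnnb1-215, and with the M21 classes, the coding share of Ctnnb1 was 96.2% in replicate 2 and 98.3% in replicate 1. There the leading transcript was Ctnnb1-214, which has the same coding length, with 55.09% in replicate 2 and 55.64% in replicate 1. In release M21 it held 0% in replicate 2 and 0.58% in replicate 1.

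Ctnnb1 is overlapped by a gene on the opposite strand, Ulk4, named here after its values were seen. Release M21 gives Ulk4, which encodes a kinase-like protein, a transcript (Ulk4-210) of 2 exons, 284 and 475 bases long, that lie wholly inside Ctnnb1 exons. Ulk4 had 155.09 TPM in replicate 2 and 149.77 TPM in replicate 1 under M21, against 3.49 and 3.64 TPM under M4. Ulk4-210 took 2621 counts in replicate 2 and 1780 counts in replicate 1. Ctnnb1 held 2593 fewer counts in replicate 2 and 1758 fewer in replicate 1 under M21 than under M4, where it had 45321 and 31016. Its TPM was nonetheless higher under M21 than the 553.1 and 539.5 TPM of M4. The length behind its TPM was shorter under M21, at 2707 bases against 3405 under M4 in replicate 2. In replicate 1 it was 2700 bases against 3390. The sources used here do not say whether the quantification used strand, so reads of the 2 genes cannot be told apart in this overlap. Over the 5′ end of Lef1 lies the antisense gene Gm43352, also named after its values were seen, with 8.03 TPM in replicate 2 and 8.50 TPM in replicate 1. Lef1 had 311 fewer counts in replicate 2 and 236 fewer in replicate 1 under M21 than under M4.

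Nkd1 (chr8:88521354-88594884), whose protein binds Dishevelled and restrains the pathway, was the gene whose level depended most on the annotation. It had 69.57 TPM in replicate 2 and 64.81 TPM in replicate 1 under M21, against 38.6 and 35.57 TPM under M4, where it lay below Tcf7l1 in both libraries. The log2 ratio of M21 over M4 was 0.83 in replicate 2 and 0.85 in replicate 1, the only one of the 10 genes past 0.5, as were 6.16% of 13284 detected protein-coding genes. Its counts were nearly the same in both releases, at 4027 under M21 and 4032 under M4 in replicate 2, and 2611 and 2619 in replicate 1. The length behind the TPM, averaged over its transcripts by abundance, was 2313 bases under M21 and 4313 under M4 in replicate 2. Under M4, Nkd1-201 was 4314 bases long and held 99.7% of Nkd1 in replicate 2 and 100% in replicate 1. Under M21 it is 3035 bases long.

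Under M21 most of the Nkd1 level went to a shorter form. Nkd1-203, of 1474 bases, held 51.42% in replicate 2 and 52.29% in replicate 1, and Nkd1-201 held 40.88% and 41.43%. Counts ran the other way, with 1286 on Nkd1-203 and 2184 on Nkd1-201 in replicate 2, and 859 and 1453 in replicate 1. The coding sequence of Nkd1-203 is the 3′ part of that of Nkd1-201, in the same frame and 312 bases shorter, so the 2 forms differ in where translation is annotated to begin. Their first 30 coding bases are given with the start codon in capitals. The codon of Nkd1-201 starts at chr8:88521507 and that of Nkd1-203 at chr8:88583256, on the plus strand.
Nkd1-201: ATGgggaaacttcactcgaagccggccgcc
Nkd1-203: ATGgagagactgagcgaacctggccaggcc
Nkd2 (chr13:73818534-73847631), the paralog, had Nkd2-201 at 62.51% in replicate 2 and 59.62% in replicate 1, and Nkd2-202 at 33.40% and 37.32%. Under M4 it had 22.38 TPM in replicate 2 and 20.26 TPM in replicate 1, close to its M21 levels.

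The scaffolds differed in how their level was made up. Axin2 (chr11:108920349-108950783), the inducible scaffold, had Axin2-201 at 44.30% in replicate 2 and 41.86% in replicate 1. The partial coding transcripts Axin2-204 and Axin2-206 averaged 18.9 ± 3.1% and 18.6 ± 3.2%, and the processed transcript Axin2-203 averaged 18.4 ± 0.18%. Axin2-204 and Axin2-206 together rested on 90 counts in replicate 2 and 54 counts in replicate 1, of 878 and 518 for the gene. Apc (chr18:34220924-34322552), the large scaffold and tumour suppressor, had its biggest shares in Apc-202, at 30.4% in replicate 2 and 26.9% in replicate 1, and Apc-203, at 22.45% and 17.89%. The retained-intron transcript Apc-208 averaged 11.1 ± 0.8% and the processed transcript Apc-206 10.0 ± 0.52%. Axin1 (chr17:26138688-26195811), the constitutive scaffold, had Axin1-201 at 81.52% in replicate 2 and 69.53% in replicate 1, and Axin1-203 at 16.32% and 23.37%.

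The libraries were then set against each other, as log2 of replicate 2 over replicate 1 on TPM + 1, with a difference called at 0.5 either way. This understates the change of low genes, and with 1 library against 1 it has no replicate check. No p is given for it. Of the 10 genes, 1 was past 0.5, beside 2.09% of the detected protein-coding genes. Without Axin1 the other 9 lay between -0.15 and 0.31. The median over the 10 was 0.09, against 0 over all detected protein-coding genes. The interval of the count ratio, which covers counting error only, excluded 1 for 6 of the 10, beside 30.0% of the detected protein-coding genes. This interval narrows with counts, and the 2 shares were not matched for depth. Ctnnb1, with 42728 counts in replicate 2 and 29258 in replicate 1, was among the 6 at a ratio of only 1.02 (95% interval 1.01 to 1.04). Lef1 had 6998 counts in replicate 2 and 4905 in replicate 1, a depth-scaled ratio of 0.999 (95% interval 0.963 to 1.04).

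Axin1 was the gene past the threshold. It had 1085 counts in replicate 2 and 1295 in replicate 1, although replicate 2 was the deeper library. Its depth-scaled count ratio was 0.587 (95% interval 0.541 to 0.637) and its log2 ratio -0.81. Among 9524 detected protein-coding genes with at least 1000 summed counts, 11 (0.115%) had a log2 ratio as low or lower, and 1.16% of all detected protein-coding genes were past 0.5 in that direction. Both main transcripts were lower in replicate 2, with 9.77 TPM for Axin1-201 in replicate 2 against 15.15 TPM in replicate 1, and 1.96 TPM for Axin1-203 against 5.09 TPM. The median log2 ratio of genes sloped with base composition from 0.04 at the lowest to -0.05 at the highest GC content, and centring Axin1 on genes of its own GC content left -0.78. First-arch markers, all 6 detected, were lower in replicate 2 as well, summing to 282.1 TPM in replicate 2 and 456.9 TPM in replicate 1, with a median log2 ratio of -0.61. Other marker lists moved too. In replicate 2, neuron markers were lower in 6 of 6 (median log2 ratio -0.34) and erythroid markers in 4 of 4 (-0.13). Frontonasal markers were higher in 4 of 4 (0.43), skeletal muscle markers in 5 of 5 (0.25), melanoblast markers in 4 of 4 (0.78) and lens and eye markers in 5 of 5 (1.02). Summed levels were 358.1 TPM in replicate 2 and 462.6 TPM in replicate 1 for neurons, and 14860 and 16220 TPM for the erythroid list. They were 232.6 and 166.5 TPM for the frontonasal list, 462.5 and 383.8 TPM for muscle, and 53.25 and 29.25 TPM for melanoblasts. The facial mesenchyme, epithelium, cartilage, endothelium and macrophage lists were mixed in direction, with medians of 0.01, -0.01, -0.12, -0.01 and 0.06. The part of any of these lists in the Axin1 difference was not tested. Fewer cells that express a gene and less of its RNA per cell cannot be told apart in bulk tissue.

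The remaining differences were small. Tcf7 had 396 counts in replicate 2 and 228 in replicate 1, a count ratio of 1.22 (95% interval 1.03 to 1.44). Axin2 had a count ratio of 1.19 (1.06 to 1.33), Nkd1 of 1.08 (1.03 to 1.14) and Nkd2 of 1.10 (1.02 to 1.18), so these 3 feedback inhibitors were each slightly higher in replicate 2 in counts per depth, a direction that Axin2 alone of them kept, at a log2 ratio of 0.07, when TPM was rescaled to the summed spike-ins. Under that rescaling the median of all detected protein-coding genes moved by -0.13 on the log2 scale, and 8 of the 10 genes were then lower in replicate 2. Relative to that shift, the median of the 10 was 0.08, and 7 of the 10 lay above the median of all detected protein-coding genes. Nkd1, at a rescaled log2 ratio of -0.03, and Nkd2, at 0, were among these 7. The measures of Apc differed. Its TPM was lower in replicate 2 (log2 ratio -0.15), while its count ratio was 1.01 (0.962 to 1.07), an interval that includes 1. The length used for it was 7623 bases in replicate 2 and 6722 bases in replicate 1, in step with its longer transcripts taking a larger share in replicate 2.

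**Figure D5:**
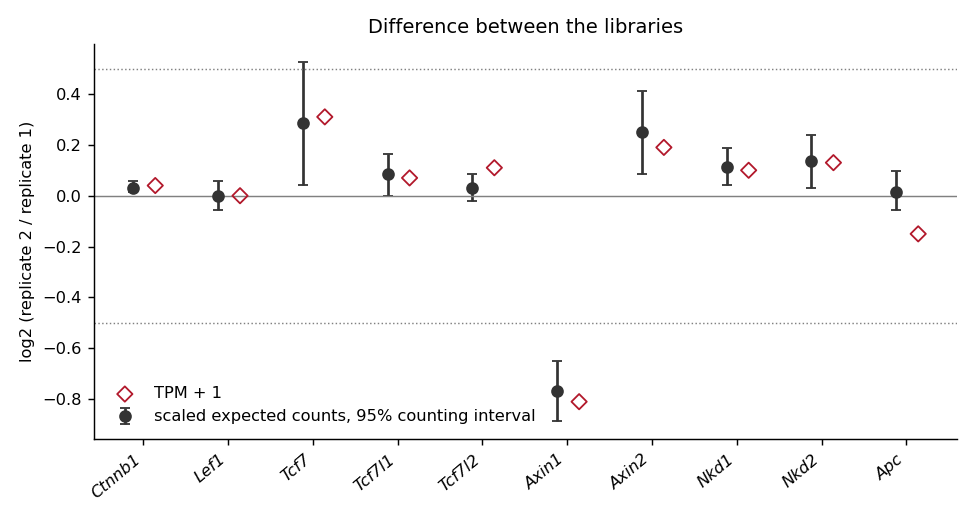
Log2 of replicate 2 over replicate 1 for each gene, from depth-scaled expected counts (dots, with the 95% counting interval) and from TPM + 1 (diamonds). Dotted lines mark 0.5 either way. Axin1 lies at -0.81 on TPM + 1, the other 9 genes between -0.15 and 0.31, and the measures of Apc part.

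The rest of the destruction machinery was broadly present. Of 23 further genes of that complex and its regulators, 22 were detected, with a median of 53.9 TPM. Highest were Skp1a, an adaptor of the ubiquitin ligase, at 735 ± 1.35 TPM, Ppp2r1a, a scaffold of phosphatase 2A, at 317 ± 3.65 TPM, and Csnk1a1, the priming kinase of beta-catenin, at 238 ± 7.21 TPM. Amer3 missed the detection rule, with 0.68 TPM in replicate 2 against 1.18 TPM in replicate 1, and Amer2 averaged 7.08 ± 0.0566 TPM. The one past 0.5, beside 2.09% of the detected protein-coding genes, was Dvl1, which relays the receptor signal to Axin. It had 6.47 TPM in replicate 2 and 13.28 TPM in replicate 1, with a log2 ratio of -0.93 and a count ratio of 0.531 (95% interval 0.475 to 0.593). Axin1 and Dvl1 were thus both lower in replicate 2, each the only gene of its list past 0.5. Dvl2 and Dvl3, paralogs of Dvl1 with higher levels in both libraries, had log2 ratios of -0.07 and 0. Over the 23 genes the median log2 ratio was -0.01, with 9 higher and 14 lower in replicate 2. Whether the differences of Axin1 and Dvl1 are linked was not tested.

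All 26 measured nuclear partners of beta-catenin and TCF/LEF were detected, with a median of 46.2 TPM. Of them 0 were past 0.5, beside 2.09% of the detected protein-coding genes. Highest were Aes, a short relative of the Groucho repressors, at 422 ± 18.1 TPM, the co-repressor Ctbp1 at 336 ± 12.3 TPM and the histone deacetylase Hdac2 at 303 ± 8.53 TPM. The lowest were Pygo1, a co-activator that binds through Bcl9, at 9.17 ± 0.0141 TPM, and the kinase Nlk, with 11.59 TPM in replicate 2 and 12.36 TPM in replicate 1. Beta-catenin is also the link between cadherins and the actin cytoskeleton, and 11 of 12 junction genes were detected, with a median of 28.9 TPM and 0 past 0.5. Cdh11, a mesenchymal cadherin, averaged 167 ± 5.58 TPM, alpha-catenin Ctnna1 138 ± 1.51 TPM and N-cadherin Cdh2 74.6 ± 7.62 TPM. The lowest were Ctnna3 at 0.195 ± 0.0778 TPM and the phosphatase Ptpn14 at 7.92 ± 1.22 TPM.

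Of 20 other genes widely used as targets of the pathway, 16 were detected, with a median of 11.4 TPM. The cell cycle gene Ccnd1 averaged 113 ± 13.3 TPM, the transcription factor Myc 45.3 ± 1.17 TPM and the receptor Tnfrsf19 43.7 ± 7.40 TPM. Cdx1, a gene of the posterior body, had 0 counts in both libraries, and Fgf20 had 0.67 TPM in replicate 2 and 0.70 TPM in replicate 1. In this list 13 genes were higher and 6 lower in replicate 2, with a median log2 ratio of 0.06. The genes past 0.5 were 2 of the 20, both lower in replicate 2, beside 2.09% of the detected protein-coding genes. The R-spondin receptor Lgr5 had 17.27 TPM in replicate 2 and 25.67 TPM in replicate 1, a log2 ratio of -0.55. Sox17, a factor of endoderm and endothelium, had 7.10 TPM in replicate 2 and 11.38 TPM in replicate 1, a log2 ratio of -0.61. The feedback genes Axin2 and Nkd1 had log2 ratios of 0.19 and 0.10.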

How the data were processed

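The deposited gene and transcript tables of both libraries were used, on mm10 with GENCODE M21, and with M4 as the alternative. Per the file headers, the authors gave an expected count (reads assigned to a feature by estimation, not scaled to depth), TPM as maximum-likelihood and posterior mean estimates, FPKM, and IsoPct, the percent of a gene's abundance per transcript. No aligner, quantifier or strand setting is named in the sources used here. Rows naming no gene, apart from spike-ins, took 0.000114% of counts in replicate 2 and 0.000139% in replicate 1 and were left out of library sizes, as were the spike-ins.

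Names, biotypes, exons and coding sequence came from GENCODE M21, and promoter windows from RefSeq on GRCm38.p6. Exon inclusion was the TPM of transcripts holding an exon over that of all transcripts spanning it. Detection required a TPM of at least 1 in both libraries. Expected counts were rounded for exact conditional (Clopper-Pearson) 95% intervals, scaled by summed gene counts of 39819334 in replicate 2 and 27887968 in replicate 1; the code was tested on simulated data. The libraries carry no molecular identifiers that the labels name, so amplified copies count as reads and intervals cover counting error only. Spread between the pools is the only error estimate. GC centring used 20 bins of detected genes. Alternatives used edgeR 4.0.16, DESeq2 1.42.0 and R 4.3.3; the rest used Python 3.11.15, pandas 2.3.3 and scipy 1.17.1.

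The genes, lists and thresholds were chosen with earlier results of these data known. Named were all 10 genes, their transcripts with a mean IsoPct of at least 10 (all coding ones for Lef1 and Tcf7l2), the 3 highest and 2 lowest genes of each further list, and those past log2 0.5. Marker lists check the tissue. The symbols Tle5 and Nkd3 had no match.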

Additional observations from a re-analysis of the deposited data

How the results depend on the processing

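All 10 genes were detected under release M4, posterior mean TPM, FPKM and a minimum of 5 TPM; any count above 0 and each library alone could not lower this number. One gene, Axin1, was past log2 0.5 under each of 9 alternatives, with log2 ratios from -0.94 on summed spike-ins to -0.71 on coding transcripts. Among these, a minimum mean of 5 TPM could not change the number, because the lowest gene, Tcf7, averaged 6.13 TPM. The share of Lef1 in the TCF/LEF sum, 34.6%, was 40.1% of summed expected counts, 40.7% of coding TPM and 42.9% of coding TPM in M4 with the M21 classes, and 33.8% to 35.4% in single libraries. The median log2 ratio of 0.09 became -0.05 on summed spike-ins. Lef1-202, at 54.9%, had 54.1% by posterior mean and 55.1% in M4; Lef1 transcripts without the first coding start, at 0%, had 0.295% by posterior mean. Tcf7l2-209, at 38.6%, had 37.8% by posterior mean and 32.2% in M4. Single libraries gave 54.7% to 55.0% for Lef1-202, 0% for Lef1 without the first start, 38.1% to 39.0% for Tcf7l2-209 and 0.390% to 0.940% for Tcf7l2 without the first start. For these shifts the cause was not tested. FPKM, another unit, and single libraries, which with n = 2 always lie within the SD, were left out of the single-gene levels. Of these levels, 20 of 30 stayed within the replicate SD of the main value. Of the log2 ratios, 66 of 80 moved from the main ratio by less than the half-width of the counting interval. For Axin1 they instead had to stay on the same side of the threshold. No paired analysis was possible because the samples form 1 group, and leaving out a library gives no ratio. GC centring and coding-transcript TPM were added after seeing the data. Depth limits Tcf7 most, at 228 counts in replicate 1; transcript shares rest on the estimator's division of shared reads.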
